A study of Mus musculus with 18 samples.

Results

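Arntl, Arntl2, Clock and Npas2 encode the activators of the mammalian circadian clock, its positive limb. Binding of BMAL1 at and around these 4 genes was read from ChIP-seq peak lists of mouse liver, kidney and heart. A peak was assigned to a gene when its centre lay inside the gene or within 10 kb of either end, and then within 50 kb. Of 11366 peaks in the 3 lists together, 2 met the first rule and 3 the second. The 4 genes were chosen by their role in the clock, out of 21887 protein-coding genes on the chromosomes. No measured value was used to choose them, but earlier results of these data were known.

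The series held 18 libraries from wild type C57BL/6 mice aged 3 to 6 months, housed under cycles of 12 h light and 12 h dark and fed freely. Liver, kidney and heart came from the same animals, 3 mice per tissue, at ZT06, which is 6 h after lights on. Each tissue gave 3 ChIP and 3 input libraries, and the ChIP used a chicken antibody against the N-terminal domain of mouse BMAL1. The authors pooled the 6 libraries of each tissue into 1 peak list, so there is no value per animal, no replicate error and no test in what follows, and the read depth behind the lists is unknown. There were 4813 peaks for liver, 4034 for kidney and 2519 for heart. Each peak carries a whole-number score whose scale is not given in the sources used here, and it was used only to rank peaks within a list (rank 1 is the highest score). For the heart input libraries, the source label says kidney where the title and tissue label say heart, and which is right was not tested. This bears on the whole heart list and so on every heart value below.

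BMAL1, the product of Arntl, pairs with CLOCK through basic helix-loop-helix and PAS domains, and the pair binds E-boxes in DNA. NPAS2 is a paralogue of CLOCK that can take its place as the partner, and Arntl2 encodes BMAL2, a paralogue of BMAL1. The pair activates the Per and Cry genes, whose products repress it, and the genes of the REV-ERB receptors. REV-ERB and ROR receptors in turn bind a different element, the RORE, through which transcription of Arntl is known to be repressed and activated in liver and other tissues.

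The start regions of these genes are shown first. No peak lay at any of them, which is also the case for most start regions in the genome. RefSeq (GRCm38.p6) listed 7 start sites for the 4 genes, 2 for Arntl, 1 for Arntl2, 3 for Clock and 1 for Npas2. The first listed start lay 29.0 kb into the gene span at Arntl and 10.8 kb into it at Arntl2. At Clock it lay 0.811 kb into the span and at Npas2 0.570 kb. The start regions shown here therefore do not cover the 5′ ends of the spans. For each gene the 250 bases before its first listed start are given 5′ to 3′ on the gene's strand, followed by those of Ciart, a clock repressor gene picked for contrast after its values were seen, with a peak there in all 3 tissues. Capitals mark matches on either strand to the E-box CACGTG, the variant E-box CACGTT, the RORE core TAGGTCA, its variant TAGGTTA or the D-box TTATGTAA.

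Arntl (chr7:113207215-113207464, plus strand): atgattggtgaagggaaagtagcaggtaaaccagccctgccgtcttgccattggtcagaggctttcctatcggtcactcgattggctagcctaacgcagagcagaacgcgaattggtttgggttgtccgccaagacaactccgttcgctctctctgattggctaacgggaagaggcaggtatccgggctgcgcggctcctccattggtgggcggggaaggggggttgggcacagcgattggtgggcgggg
Arntl2 (chr6:146805280-146805529, plus strand): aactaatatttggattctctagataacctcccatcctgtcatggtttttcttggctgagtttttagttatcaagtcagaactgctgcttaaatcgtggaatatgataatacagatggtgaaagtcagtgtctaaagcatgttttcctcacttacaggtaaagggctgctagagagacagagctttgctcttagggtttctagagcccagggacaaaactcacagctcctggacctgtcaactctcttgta
Clock (chr5:76304793-76305042, minus strand): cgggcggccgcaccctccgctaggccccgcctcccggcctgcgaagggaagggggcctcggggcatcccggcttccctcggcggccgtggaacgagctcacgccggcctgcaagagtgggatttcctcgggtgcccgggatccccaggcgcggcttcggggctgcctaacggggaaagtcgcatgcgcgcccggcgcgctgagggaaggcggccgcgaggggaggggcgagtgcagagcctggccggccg
Npas2 (chr1:39194022-39194271, plus strand): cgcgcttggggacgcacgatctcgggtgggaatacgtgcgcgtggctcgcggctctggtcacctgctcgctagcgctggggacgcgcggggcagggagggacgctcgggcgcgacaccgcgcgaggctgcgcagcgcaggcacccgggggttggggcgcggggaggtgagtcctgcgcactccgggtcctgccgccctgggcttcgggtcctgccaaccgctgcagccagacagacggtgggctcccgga
Ciart (chr3:95882229-95882478, minus strand): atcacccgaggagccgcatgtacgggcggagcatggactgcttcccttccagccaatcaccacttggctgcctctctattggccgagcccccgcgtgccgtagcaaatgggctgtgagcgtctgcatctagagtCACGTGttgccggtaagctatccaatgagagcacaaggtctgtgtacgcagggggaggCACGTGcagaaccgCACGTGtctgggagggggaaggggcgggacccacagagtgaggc

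None of the 4 stretches from the positive limb held any of these letters, while that of Ciart held CACGTG at 3 places. Including the 50 bases from each start onward, neither CACGTG nor CACGTT occurred in any of the 7 windows of 300 bases. Of all 32851 such windows in the RefSeq table, 7.15% held CACGTG and 4.68% held CACGTT, so an empty set of 7 windows is near what the whole table holds. Some of the 7 overlap each other, at Arntl and at Clock. Of the 14 other clock genes with a listed window, 5 held CACGTG (Per1, Cry1, Tef, Bhlhe41 and Ciart) and 4 held CACGTT (Cry1, Cry2, Nr1d1 and Rorb). TTATGTAA was in none of the 7 windows, against 0.938% of all windows.

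The RORE letters were found at Arntl alone among the 4 genes, just 3′ of its first start site. The variant TAGGTTA, which was added to the search after the sequence had been seen, began 41 bases into the first listed transcript and 6 bases before the second start. TAGGTCA began at base 31 counted from the second start. Both lay on the gene's own strand, and they are shown here with their flanks because REV-ERB and ROR receptors are known to act on this gene through such elements.

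Arntl TAGGTTA (chr7:113207494-113207523, plus strand): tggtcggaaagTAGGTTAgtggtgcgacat
Arntl TAGGTCA (chr7:113207530-113207559, plus strand): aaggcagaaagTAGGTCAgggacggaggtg

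TAGGTCA occurred in 2.61% of all windows, TAGGTTA in 1.44%, and both together in 0.0487% (16 windows). Because TAGGTTA was added after the sequence had been seen, the shares for it and for the pair do not measure how unusual Arntl is. Among the other clock genes, TAGGTCA was found only in the window of Nfil3 and TAGGTTA in none. These matches describe letters, and binding of REV-ERB or ROR was not measured in this series.

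No peak of any list overlapped a start window of Arntl, Arntl2, Clock or Npas2. Peaks overlapped 3.19% of all windows in liver, 4.14% in kidney and 2.12% in heart, so 0 of 7 is near the share of all windows. The 7 are not all separate regions, because windows overlap each other at Arntl and at Clock. At the other clock genes 10 of 17 windows were overlapped in each tissue. Measured from the listed start sites, the closest peak of any tissue was 47.9 kb away at Arntl (heart), 63.3 kb at Clock (heart), 108 kb at Arntl2 (liver and kidney) and 383 kb at Npas2 (liver). For comparison, the centre of the nearest peak lay 0.0745 kb from the Ciart start in liver and heart and 0.0755 kb in kidney. Across all windows, CACGTG was in 31.3% of the 2082 with a peak in at least 1 tissue and in 52.6% of the 272 with a peak in all 3.

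Within 10 kb, the liver list had a peak at 0 of the 4 genes, the kidney list at 1 (Arntl) and the heart list at 1 (Clock). The same rule placed a peak at 18.1% of all protein-coding genes in liver, 18.0% in kidney and 11.5% in heart. A peak of at least 1 list lay at 2 of the 4 genes and at 30.7% of all protein-coding genes. The share was higher among long genes, which 3 of the 4 are. Among the 4945 protein-coding genes of at least 50 kb, the liver list had a peak at 26.0%, the kidney list at 25.2% and the heart list at 20.8%. For a set of 4 genes, counts of 0, 1 and 1 do not stand apart from these shares. Within 50 kb, no gene had a liver peak, 1 had a kidney peak and 2 had a heart peak (Arntl and Clock), against 34.0, 33.1 and 22.7% of protein-coding genes.

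**Figure D1:**
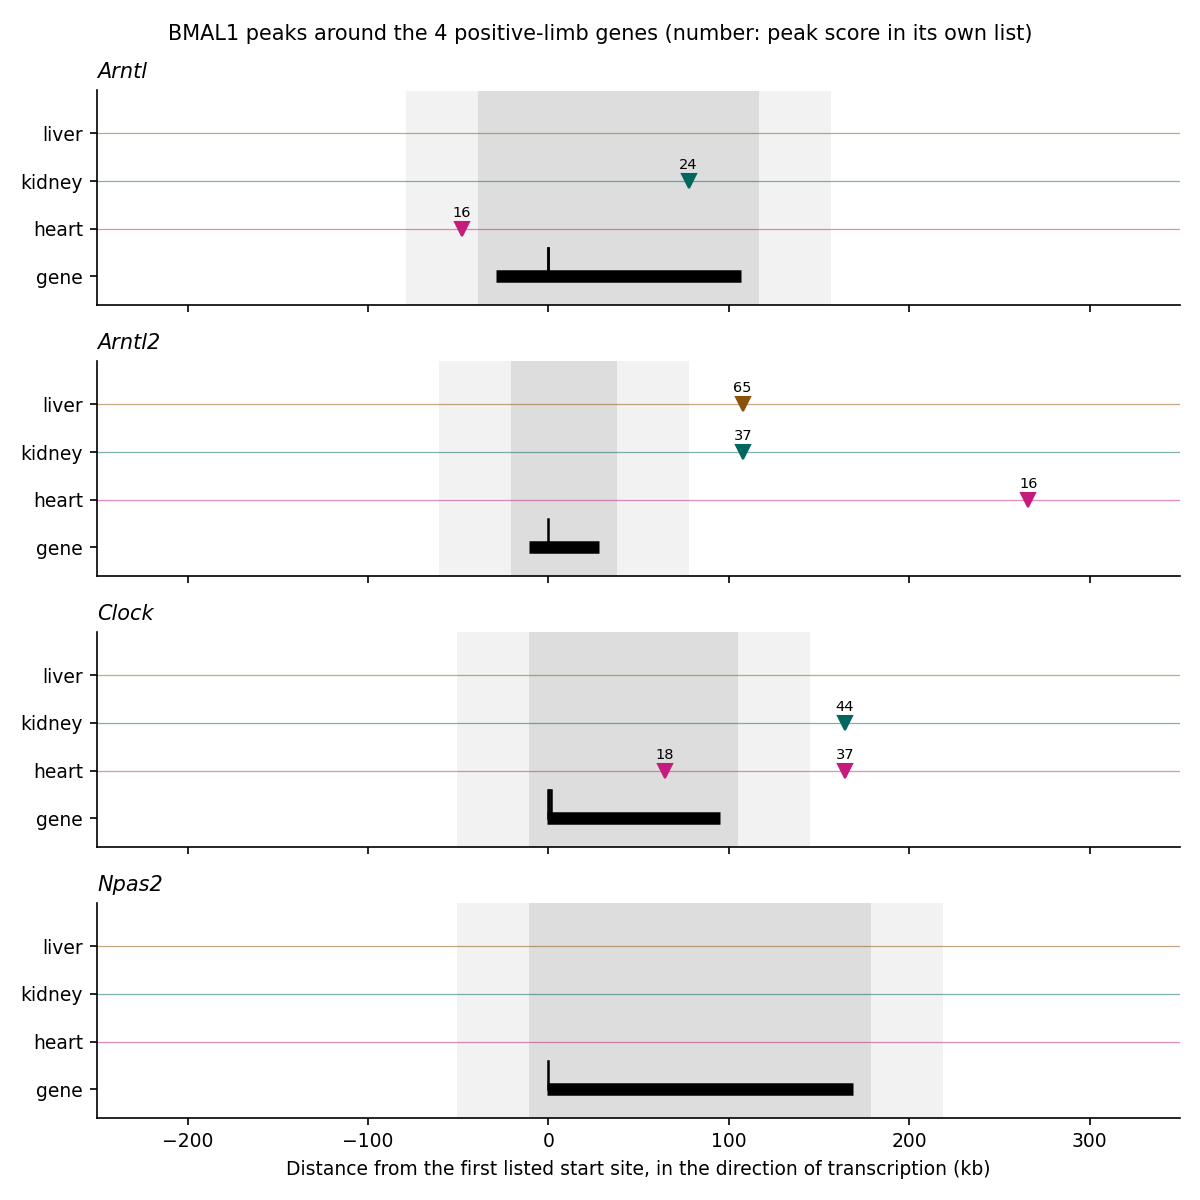
Peaks (triangles, with the score in their own list) of liver, kidney and heart around the 4 positive-limb genes, by distance in kb from the first listed start site in the direction of transcription. Black bars are the genes, ticks the start sites, dark and light shading the gene with 10 kb and 50 kb on each side; 2 peaks fall in the dark shading and 1 more in the light, and none sits at a start site.

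Arntl spans 136 kb of the plus strand (chr7:113178471-113314126), and its first listed start lies 29.0 kb into that span. Its kidney peak lay inside the gene (chr7:113285041-113285228), 77.7 kb downstream of that start and 78.6% of the way along the gene. Whether it falls in an exon or an intron was not analysed here. The peak scored 24, below the median of 28 of the kidney list, and ranked 2344 of 4034, a rank it shared with the other peaks among the 130 of that score. No liver or heart peak overlapped it; the closest was 1038 kb away in liver and 126 kb away in heart. The nearest end of any protein-coding gene, 29.0 kb away, was that of Arntl itself.

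A second peak near Arntl was found in heart, 18.9 kb upstream of the gene and outside any protein-coding gene (chr7:113159477-113159674). It scored 16, the lowest score of the heart list, which 305 peaks had, and ranked 2215 of 2519. It lay 47.9 kb upstream of the first listed start site. The closest kidney peak to it was the one inside Arntl, 126 kb away, and the closest liver peak was 934 kb away. The kidney and heart peaks at Arntl are therefore different sites. In liver the nearest peak to Arntl was 953 kb from the gene, close to Mical2 (score 47, rank 1896). Of all protein-coding genes, 13.6% were at least as far from a liver peak.

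Clock, which encodes the usual DNA-binding partner of BMAL1, spans 95.7 kb of the minus strand (chr5:76209868-76305603). Its heart peak lay inside the gene (chr5:76240072-76240269), 64.6 kb downstream of the first listed start and 68.3% of the way along. The score was 18, with a heart list median of 25, and the rank 1826 of 2519. There were 149 heart peaks with that score and 545 with a lower one. No kidney or liver peak overlapped this site, the closest being 99.6 kb away in kidney and 711 kb away in liver. The nearest end of any protein-coding gene was an end of Clock, at 30.3 kb.

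Beyond 50 kb, a site with peaks in both kidney and heart lay 69.3 kb past the 3′ end of Clock, inside Srd5a3, an enzyme gene of protein glycosylation. It scored 44 in kidney (chr5:76140493-76140680, rank 1037) and 37 in heart (chr5:76140472-76140669, rank 723). The kidney peak was 0.314 kb from an end of Srd5a3. In both lists it had a score above the list median, unlike the peak inside Clock. The nearest liver peak to Clock was 646 kb away, inside Ppat and 0.126 kb from an end of Paics, with a score of 125 (rank 251).

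Arntl2 spans 38.8 kb (chr6:146794729-146833529) and had no peak within 50 kb in the 3 lists. The nearest liver and kidney peaks were 79.7 kb away and overlapped each other inside Ppfibp1. They scored 65 in liver (chr6:146913094-146913335, rank 1157) and 37 in kidney (chr6:146913149-146913336, rank 1349). In heart the nearest peak was 238 kb away, 0.637 kb from an end of Mrps35, and had the lowest score of the list, 16. At least as far from a peak were 58.0% of protein-coding genes in liver, 59.4% in kidney and 48.6% in heart, so the distances at Arntl2 were common ones.

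Npas2 is the longest of the 4 genes, with 170 kb (chr1:39193702-39363240), and it also had no peak within 50 kb. Its nearest peaks were the most distant of the 4 genes in kidney and heart. The liver peak was 214 kb away, 0.146 kb from an end of Rnf149 (score 50, rank 1743). The kidney peak was 1064 kb away inside Rev1 (score 93, rank 241), a distance reached by 14.3% of protein-coding genes. The heart peak was 466 kb away (score 17, rank 1975), a distance reached by 33.9%. Over all protein-coding genes the median distance was 121 kb (liver), 130 kb (kidney) and 223 kb (heart).

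**Figure D2:**
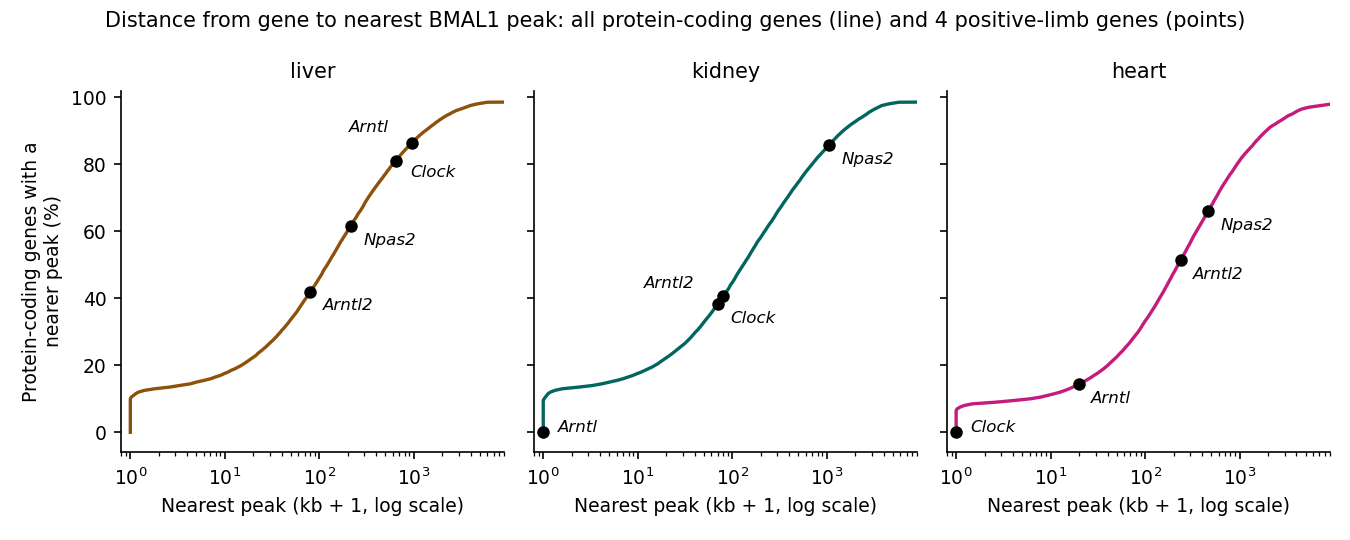
Percent of 21887 protein-coding genes that have a peak nearer than the distance on the x axis (kb + 1, log scale), as a line for each tissue, with the 4 positive-limb genes as points. Arntl and Clock sit high on the liver curve at 953 and 646 kb, and at the foot of the kidney and heart curve respectively, where a peak lies inside the gene.

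The 3 peaks within 50 kb were each found in a single tissue, and no site there was shared. Most peaks of such low score were likewise found in a single tissue. Of the 1691 kidney peaks with a score of 24 or less, 80.2% overlapped no peak of another tissue, against 57.7% of the whole kidney list. In heart this was the case for 98.1% of the 694 peaks with a score of 18 or less and for 99.0% of the 305 with a score of 16, against 65.0% of the whole list. Apart from Arntl, 1 protein-coding gene (Btbd10) lay within 50 kb of it. There were 2 such neighbours at Arntl2 (Stk38l and Smco2), 3 at Clock (Tmem165, Pdcl2 and Nmu) and 2 at Npas2 (Rpl31 and Tbc1d8). None of these neighbours had a peak of any list within 10 kb, and none overlapped a positive-limb gene.

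Outside the ROR genes, the other limbs of the same loop had high-ranking peaks in all tissues. Of 16 other clock genes and outputs, 15 had a peak within 10 kb in each tissue. They were the same 15 genes in all 3 lists, among them Rora with low-ranking peaks. Such a peak was present at 18.1% of all protein-coding genes in liver, 18.0% in kidney and 11.5% in heart, and at 4.35% in all 3 tissues. The 15 included 5 of 5 period and cryptochrome genes, which encode the repressors of CLOCK and BMAL1. Both REV-ERB genes, Nr1d1 and Nr1d2, were at ranks 1 and 2 of every list. All 4 bZIP genes (Dbp, Tef, Hlf and Nfil3), which encode D-box factors, and all 3 E-box repressor genes (Bhlhe40, Bhlhe41 and Ciart) had peaks in each tissue. The best ranks had a median of 19.0 (liver), 14.0 (kidney) and 11.0 (heart).

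**Figure D3:**
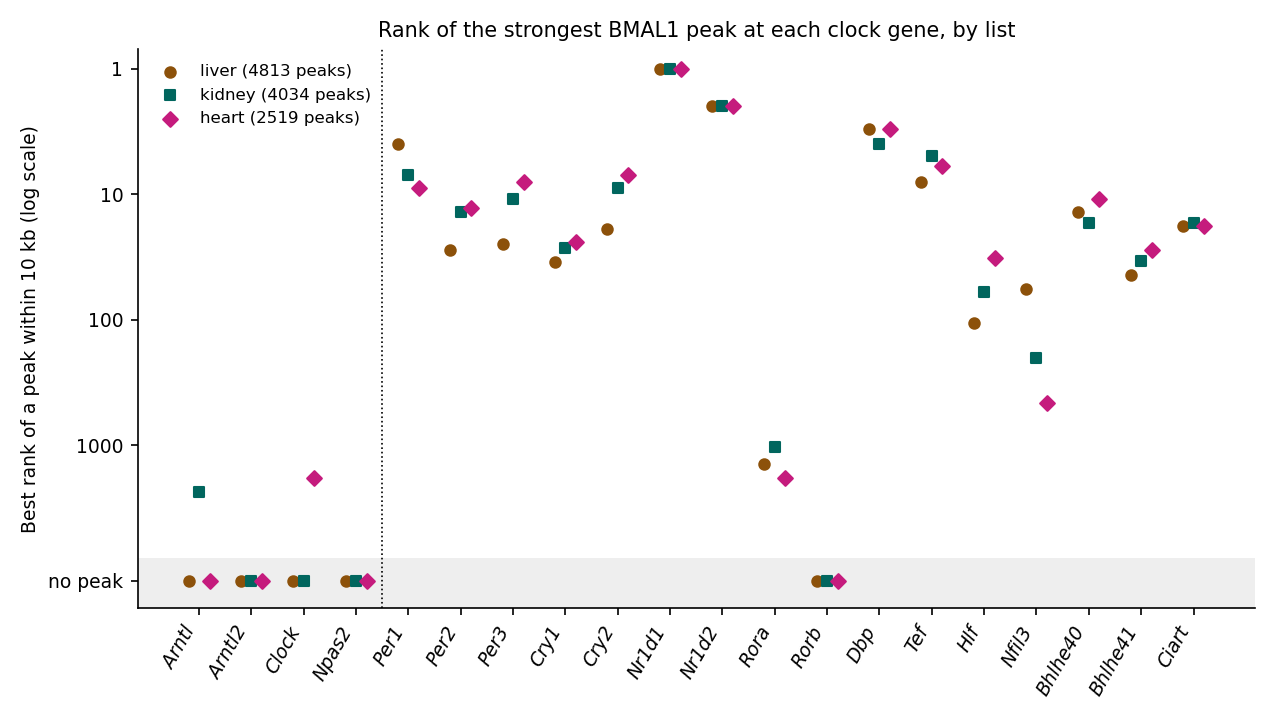
Rank (log scale, rank 1 at the top) of the highest-scoring peak within 10 kb of each gene in the liver, kidney and heart lists, with genes that have no such peak in the grey band. The 4 positive-limb genes are left of the dotted line; their 2 peaks, at ranks 2344 and 1826, lie below or level with the peaks of every other clock gene in the same list, and Rorb shares the absence of a peak.

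Rora and Rorb, which encode ROR receptors, the activators that act on Arntl through ROREs, stood lower in the lists than the other clock genes. Rorb had no peak within 10 kb in any tissue, the same pattern as Arntl2 and Npas2, and its nearest peak was 218 kb away in kidney. Rora had peaks in all 3 tissues, but at ranks 1408 in liver, 1037 in kidney and 1826 in heart. That heart score, 18, equals the score of the peak at Clock. Rora spans 735 kb, so its window is far longer than those of the positive-limb genes. From its listed start site, the nearest peak was 25.5 kb away in liver, 636 kb in kidney and 497 kb in heart. Apart from Rora, the lowest best rank among the other clock genes was 106 in liver (Hlf), 203 in kidney (Nfil3) and 464 in heart (Nfil3).

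All 4 positive-limb genes belong to the wider bHLH-PAS family. Of 12 relatives in it, 6 had peaks in a single tissue and 4 in none. To have peaks in 1 tissue at most is also usual among all protein-coding genes, of which 69.3% had none. Of the 21887 protein-coding genes, 1533 had a liver peak only, 1463 a kidney peak only and 941 a heart peak only. Of the 12, 2 had a liver peak within 10 kb, 4 a kidney peak and 5 a heart peak. In the same order, 18.1, 18.0 and 11.5% of all protein-coding genes had one. Among protein-coding genes of at least 50 kb the shares were 26.0, 25.2 and 20.8%, and some relatives are long, such as Npas3 (824 kb) and Arnt2 (165 kb). The kidney and heart counts were above both shares and the liver count was not. Whether the family differs from other genes was not tested. Hif1a, the oxygen-regulated subunit of the hypoxia-inducible factor, had a peak in all 3 tissues, with liver rank 167, kidney rank 89 and heart rank 77. Arnt2 (rank 1588) and Sim1 (rank 3164) had a kidney peak only, the pattern of Arntl, which 6.68% of protein-coding genes had. Arnt (rank 970), Ahr (rank 1975), Hif3a (rank 1406) and Npas3 (rank 1826) had a heart peak only, the pattern of Clock and of 4.30% of protein-coding genes. Npas1, Npas4, Sim2 and Ahrr had no peak, as did Arntl2, Npas2 and 69.3% of protein-coding genes.

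Genes of proteins that bind or modify CLOCK and BMAL1 had peaks in 3 of 12 cases in liver, 4 in kidney and 2 in heart. Sirt1, a deacetylase, had a peak in all tissues, with liver rank 848, kidney rank 365 and heart rank 210. Cipc, which encodes an inhibitor that binds CLOCK, had a peak in kidney (rank 352) and heart (rank 291) but none within 10 kb in liver, where the nearest was 26.0 kb away. No peak lay within 10 kb of 7 of the 12, among them the casein kinase genes Csnk1d and Csnk1e and the acetyltransferase gene Ep300. In the same order, 18.1, 18.0 and 11.5% of all protein-coding genes had a peak, and 69.3% had none in any tissue. Each tissue's count was above its share, and the 7 without a peak were below theirs. Among protein-coding genes of at least 50 kb the shares were 26.0, 25.2 and 20.8%, and only the kidney count was above these. Whether this list differs from other genes was not tested.

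**Figure D4:**
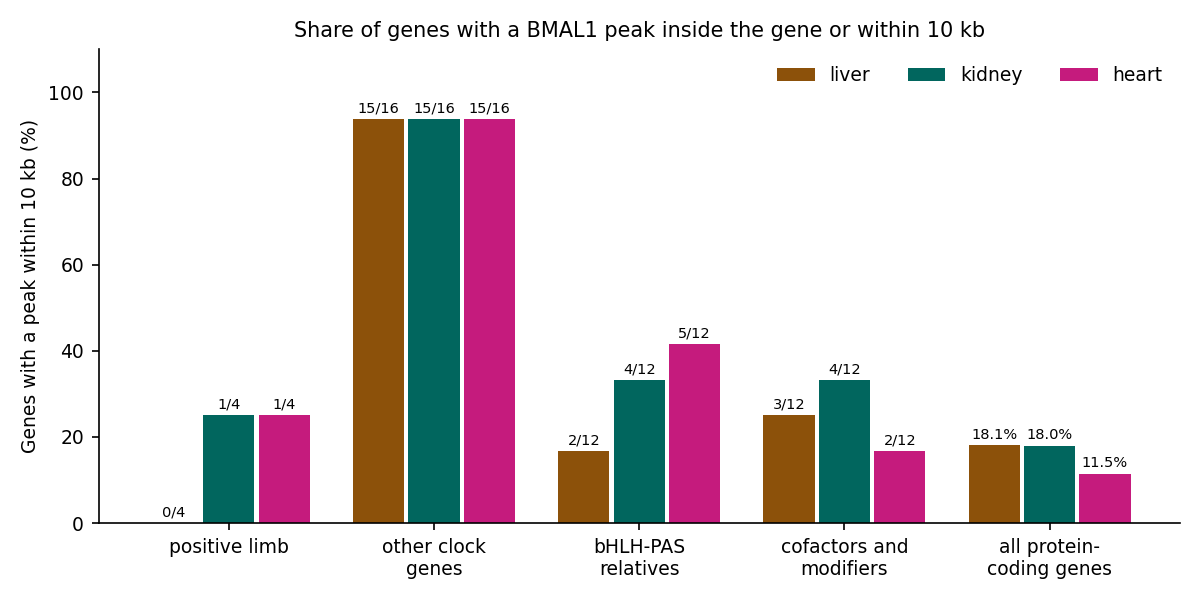
Percent of genes with a peak inside the gene or within 10 kb, by gene list and tissue (bars; the label gives genes with a peak over genes in the list). The positive limb, at 0 of 4, 1 of 4 and 1 of 4, is near all protein-coding genes (18.1, 18.0 and 11.5%), and the other clock genes reach 15 of 16 in each tissue.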

How the data were processed

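BMAL1 ChIP-seq of mouse liver, kidney and heart was analysed as 3 peak lists. Titles gave each library's tissue and whether it was ChIP or input. Per the submitters' processing notes the tools were Bowtie2, SAMtools and HOMER and the build was mm10; no version or setting is stated there. Per the labels, the authors pooled 3 ChIP and 3 input libraries for each list. The deposited score per peak has no stated scale and was used only for ranks within a list. In a list, a site under the authors' threshold and an unbound site look alike, and depth is unknown.

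Gene spans (49943 genes, 21887 protein-coding) and promoter windows (32851, from 250 bases before to 50 after a start) came from RefSeq tables of GRCm38.p6; all 44 listed genes matched a symbol. Distances ran from peak centres to gene ends. Peaks overlapping by at least 1 bp were 1 site. Motifs were searched on both strands as exact letters, with overlapping matches counted. No peak sequences were read. Python 3.11.15 and pandas 2.3.3 were used, and the assignment was tested on simulated data.

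The 4 genes, the lists of related genes and the rules were chosen with earlier results of these data known. The genes named are the 4, those nearest to their peaks, and up to 4 per list (best rank or no peak), with others named where a count or a shared pattern needed them. Alternatives were other distances, overlap rules, score thresholds and gene sets; distances from start sites were added after the data had been seen. A gene that the planned lists held is not reported here and was left out of every list count.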

Additional observations from a re-analysis of the deposited data

How the results depend on the processing

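No paired analysis was possible because each list pools the animals of a tissue, and for the same reason no replicate could be left out. Liver had a peak at 0 of the 4 genes under every alternative except 100 kb, which gave 1 (Arntl2). In kidney, 100 kb gave 3 genes, while the upper 50% of peaks, the top 1000 peaks and a distance of 10 kb from listed start sites each gave 0. In heart, 50 kb and 100 kb gave 2, and the upper 50%, the top 1000 and the start sites each gave 0. Sites shared between tissues numbered 0 except within 100 kb, where there were 2. Counts of the other clock genes kept within 1.5 times under all alternatives, the lowest being 12 of 14 genes with a listed start site. The share of protein-coding genes followed the setting, in the order liver, kidney and heart. It was 15.5, 15.5 and 9.99% within 5 kb, 34.0, 33.1 and 22.7% within 50 kb and 46.3, 44.9 and 33.4% within 100 kb. The upper 50% of peaks gave 11.0, 10.7 and 7.15%, and the top 1000 gave 5.34, 5.81 and 5.69%. A distance of 10 kb from start sites gave 12.2, 13.1 and 7.27% of the 17492 genes with a listed start site, a smaller gene set. All annotated genes gave 11.8, 11.3 and 7.22%, and genes of at least 50 kb gave 26.0, 25.2 and 20.8%. Both peaks within 10 kb of a positive-limb gene are of low score, so the depth and the score threshold behind each list, both unknown, limit any statement on their absence elsewhere.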

Other observations

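Peak density around the 4 genes was not uniformly low. Within 1 Mb of the gene ends, Arntl had 2 peaks in liver, 5 in kidney and 5 in heart, and Clock had 4, 3 and 6. Arntl2 had 8, 6 and 5. Protein-coding genes had a median of 5 in both liver and kidney and 3 in heart. Npas2 had 5 peaks in liver and 2 in heart, but 0 in kidney, a count that 15.0% of protein-coding genes had.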
